A study of Mus musculus with 26 samples.

Results

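The first 22 days of a chemical reprogramming course were followed through 4 of the 26 mouse RNA libraries of the series. These are the libraries whose labels give all chemicals and day 6, 12, 18 or 22, with 1 library per day and the days in order. The course treats mouse embryonic fibroblasts (MEF) with small molecules until chemically induced pluripotent stem cells (CiPSC) can be derived. It was set against 2 reduced courses of 4 libraries each on the same days, 1 lacking BrdU, which is bromodeoxyuridine and resembles thymidine, and 1 lacking Chir, which blocks the kinase GSK3. The labels describe the reduced courses only by the chemical taken out. Days 30, 36 and 40 of the full course, 1 MEF library and 6 CiPSC libraries are given as levels beside the results. The doses, the remaining chemicals and the mouse strain are not given in the sources used here. Nothing says that the days came from separate cultures.

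Cells on this chemical route are known to pass through a state that resembles extraembryonic endoderm, the lineage that lines the yolk sac. That lineage is set up by the transcription factors Gata4, Gata6, Sox17 and Sox7. Its visceral branch takes up and secretes proteins much as a liver does, and its parietal branch lays down a thick basement membrane of type IV collagen and laminin. Fibroblasts are instead held by mesenchymal transcription factors and make fibrillar collagens. Sall4 serves both endoderm and pluripotent cells.

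The deposited value of a gene is a quantile-normalised score without a unit of reads, so levels can be compared between days for 1 gene but not between genes. Sums over a list, given below for some lists, mainly follow its highest genes and are rough descriptions. Values below are given in the order of days 6, 12, 18 and 22 unless days are named. A slope is the change of log2(value + 1) per 10 days, with its standard error, fitted with limma over the 4 days. A gene is said to rise or fall where its adjusted p (Benjamini-Hochberg over 16028 genes tested) was under 0.05. Library totals are nearly equal by construction, from 4143561 to 4162600, so sequencing depth cannot be read from them. In bulk RNA, fewer cells of a type and less RNA per cell cannot be told apart.

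The 4 endoderm markers were near 0 on day 6 and high on day 22. Gata4 stood at 12, 1390, 1920 and 2768. Sox17, which acts with it in endoderm, stood at 15, 601, 848 and 1534. Foxa2, a pioneer factor of endoderm, stood at 3, 188, 392 and 750. Sall4 stood at 13, 228, 424 and 760. Each of them was higher on every later day than on the day before, and on the log2 scale most of the change lay between days 6 and 12. Slopes were 3.83 ± 0.78 for Sox17 (adjusted p = 0.0411), 4.48 ± 0.78 for Foxa2 (adjusted p = 0.0290) and 3.43 ± 0.55 for Sall4 (adjusted p = 0.0244). Gata4 had a slope of 4.52 ± 1.08 and was not called (adjusted p = 0.0577), its standard error being the widest of the 4. It was called with a pseudocount of 5, with a mean of at least 5, or in 1 fit over the 12 libraries of the 3 courses.

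Levels elsewhere in the series set the marker rise in context. Gata4, Sox17, Sall4 and Foxa2 stood at 1557, 653, 488 and 347 on day 40, so each was below its day 22 level by then. In MEF they stood at 8, 0, 0 and 1. Sall4 averaged 964 ± 222 in CiPSC (SD, n = 6), whereas the other 3 markers averaged 12.3 or less there. Sall4 is therefore shared with pluripotent cells in these data, and Gata4, Sox17 and Foxa2 are not.

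**Figure D1:**
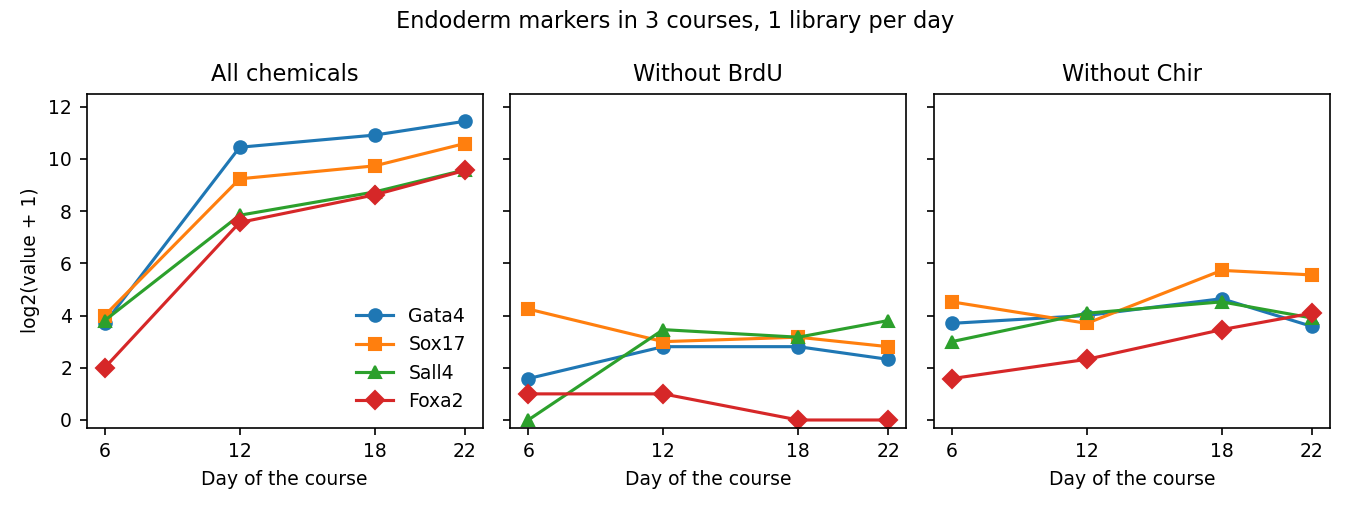
Levels of Gata4, Sox17, Sall4 and Foxa2 as log2(value + 1) on the vertical axis against the day of the course, with 1 library per point, in the full course (left), the course without BrdU (middle) and the course without Chir (right). In the full course Gata4 reached 2768 on day 22, against 4 without BrdU and 11 without Chir.

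In mm10 with GENCODE M21 positions, Gata4 lies on chromosome 14 from 63198922 to 63271692, Sox17 on chromosome 1 from 4490931 to 4497354, Sall4 on chromosome 2 from 168748332 to 168767943 and Foxa2 on chromosome 2 from 148042877 to 148046969, all on the minus strand. RefSeq promoter windows (GRCm38.p6) were at hand for 11832 of the 16028 genes tested, and among the markers for Foxa2. The pair below shows the 250 bases before the outermost annotated Foxa2 start and those before an internal start, which lie in an intron of the longer transcripts. They are printed 5′ to 3′ on the gene's strand, with GATAA, the core of the GATA factor motif, in capitals.
Foxa2 outer start, chr2:148046970-148047219: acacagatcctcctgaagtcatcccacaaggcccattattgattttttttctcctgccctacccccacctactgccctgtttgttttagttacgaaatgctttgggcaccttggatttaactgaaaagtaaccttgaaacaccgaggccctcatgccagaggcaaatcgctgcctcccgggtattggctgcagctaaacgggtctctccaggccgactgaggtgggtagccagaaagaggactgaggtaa
Foxa2 internal start, chr2:148045465-148045714: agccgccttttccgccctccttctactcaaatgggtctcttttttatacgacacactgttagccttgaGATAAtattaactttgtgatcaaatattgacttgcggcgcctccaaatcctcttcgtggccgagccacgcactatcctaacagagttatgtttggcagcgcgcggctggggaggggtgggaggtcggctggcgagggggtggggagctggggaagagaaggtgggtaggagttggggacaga

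The internal window holds 1 GATAA, 182 bases before its start, and the outer window holds none on either strand. Another Foxa2 window, before a different internal start, holds no GATAA either and is not printed. GATAA or its reverse TTATC was in 15.1% of the 570 rising and 13.2% of the 545 falling genes with a window, beside 15.6% of all genes with one. The forkhead motif TGTTTAC was in 2.98% of rising and 2.57% of falling genes, beside 2.20% of all. TGACTCA, bound by AP-1, was in 3.86% of rising and 4.22% of falling genes, beside 3.30% of all, and CATTCC, bound by TEAD factors, in 13.0% and 12.7%, beside 10.9%. Both strands were searched for each motif, in 1 window per gene, the first listed where a gene has several. A motif in another window of the same gene was not counted, and these shares are descriptions with no test.

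Of all genes tested, 1506 were called, 746 rising and 760 falling, which is 4.65% and 4.74% of the genes tested. Of the rising genes, 658 were at least as high on each day as on the day before, and 712 of the falling genes at least as low. The largest step of a rising gene lay between days 6 and 12 in 427 cases, between days 12 and 18 in 298 and between days 18 and 22 in 21. For falling genes the same counts were 301, 326 and 133. The median change of a rising gene was 1.19, 1.06 and 0.39 over the successive steps of 6, 6 and 4 days, or 0.20, 0.18 and 0.10 per day. Falling genes had medians of -0.82, -0.89 and -0.53, or -0.14, -0.15 and -0.13 per day. A straight line favours steady change, so these shares describe the called genes and not the transcriptome.

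Without regard to any test, 876 genes were at least 2-fold up and 1108 at least 2-fold down between days 6 and 12, out of 12589 that reached 20. Between days 12 and 18 the counts were 845 up and 828 down of 12534. Between days 18 and 22 they were 444 and 487 of 12447. Spearman's rho across genes between neighbouring days was 0.948, 0.958 and 0.972, the closest pair being the last and also the closest in time. The median rising gene stood at 26, 74, 162 and 211 on the 4 days, and at 186, 191 and 172 on days 30, 36 and 40. The median falling gene stood at 286.5, 156, 83 and 55, and at 56.5, 66 and 65.5 on days 30, 36 and 40.

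These calls rest on 4 points and 2 residual degrees of freedom, and the spread about the line holds real curvature as well as noise. With any 1 day left out no gene was called by limma, with lowest adjusted p-values of 0.192, 0.095, 0.092 and 0.174 without days 6, 12, 18 and 22. At an unadjusted p under 0.05 the same fits gave 2622, 4260, 3405 and 3368 genes, and all 1506 called genes kept their sign in each. Those genes were picked for their slope over the same days, so a kept sign was close to given and is no separate support. Dropping the intensity trend from the prior variance also left no call (lowest adjusted p 0.0578), with 4290 genes at an unadjusted p under 0.05.

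Endoderm transcription factors were among the genes that rose. Of 12 tested, 6 rose and none fell, with a median slope of 2.47, beside 0.01 over all genes tested. The list includes the 4 markers that define this part, and Sox17, Foxa2 and Sall4 are among the 6. Its count is therefore not separate from the marker result, and the risers beyond the markers were Gata6, Sox7 and Hnf4a. Gata6, an early driver of primitive endoderm, stood at 301, 893, 1368 and 2631 (1.85 ± 0.20, adjusted p = 0.0159). It was thus already present on day 6, unlike the 4 markers. Sox7 stood at 64, 352, 546 and 992 (2.32 ± 0.31, adjusted p = 0.0183), and at 44 on day 30. Hnf4a, a regulator of visceral endoderm and liver, stood at 3, 17, 39 and 78 (2.62 ± 0.33, adjusted p = 0.0168), and at 230 on day 30. Sox7 was therefore lower and Hnf4a higher after the period than at its end. Foxa1 and Foxa3 stayed at 5 or less on all 4 days, and Hhex stood at 66, 42, 34 and 38 (adjusted p = 0.252). Not every endoderm regulator was therefore present.

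Visceral endoderm genes for uptake and plasma proteins rose in 9 of 21 cases and fell in none (median slope 2.36). Their summed value was 840, 4129, 8968 and 9380, and Dab2, Lrp2 and Cubn, given below, made up most of it on day 22. Apoa1, an apolipoprotein of high-density lipoprotein, stood at 2, 16, 154 and 206 (4.05 ± 0.39, adjusted p = 0.0153), and Apoa4 at 0, 18, 166 and 190 (4.90 ± 0.60, adjusted p = 0.0165). Both apolipoproteins stood at 18 or less on day 12 and at 154 or more on day 18. The endocytic receptor Lrp2 stood at 20, 639, 1259 and 2218 (4.0 ± 0.69, adjusted p = 0.0285). Its adaptor Dab2 stood at 250, 881, 2637 and 2637 (2.23 ± 0.29, adjusted p = 0.0171). Cubn, the partner receptor of Lrp2, stood at 22, 1002, 2276 and 1980 and was not called (adjusted p = 0.0519). Mttp, which loads lipid onto lipoproteins, stood at 34, 62, 170 and 182 (1.62 ± 0.24, adjusted p = 0.0210). Fga and Fgg, chains of fibrinogen, and the retinol carrier Rbp4 and the junction protein Amot also rose. The classical plasma markers Afp (0, 34, 55 and 60, adjusted p = 0.0625) and Ttr (0, 39, 24 and 17, adjusted p = 0.228) did not pass the test, and Apob stood at 50, 12, 10 and 22 (adjusted p = 0.424). Afp and Ttr stood at 195 and 312 on day 30, above each of the 4 days.

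Of 17 genes of parietal endoderm and its basement membrane, 3 rose and 1 fell (median slope 0.54). The type IV collagen chains Col4a1 (2634, 8324, 11338 and 21988, slope 1.78 ± 0.27, adjusted p = 0.0218) and Col4a2 (1832, 6863, 11327 and 21988, slope 2.13 ± 0.26, adjusted p = 0.0166) rose together. Both ended at 21988, the highest value any library holds, which 10 genes share in each library, so a further rise could not be seen. Lamc1, a laminin chain, stood at 1918 on day 6 and at that ceiling on the other 3 days, and was not called (adjusted p = 0.108). Lama1, another laminin chain, stood at 390, 8316, 11332 and 11332 (adjusted p = 0.0707). The protease Lgmn rose (862, 1318, 1794 and 1985, slope 0.76 ± 0.17, adjusted p = 0.0480). Plat, the tissue plasminogen activator, fell (639, 376, 254 and 233, slope -0.93 ± 0.17, adjusted p = 0.0336). High values are coarse in this table, since the 240 values of 5000 or more in the 4 libraries take 42 distinct values.

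Signalling genes moved in both directions, with 7 rising and 8 falling of 28 tested (median slope -0.23). On the rising side Fgfr4, an FGF receptor, stood at 0, 272, 718 and 780 (5.79 ± 1.29, adjusted p = 0.0497). Igfbp1, a carrier of insulin-like growth factors, stood at 0, 4, 82 and 167 (4.89 ± 0.44, adjusted p = 0.0144), and Ihh, a hedgehog ligand made by visceral endoderm, at 1, 78, 105 and 315 (adjusted p = 0.0316). Kit, the receptor, rose (176, 879, 1756 and 1794, adjusted p = 0.0285) while Kitl, its ligand, fell (601, 280, 190 and 116, adjusted p = 0.0168). Fgfr2, which stood at 739, 378, 221 and 108, fell (-1.66 ± 0.18, adjusted p = 0.0158). Members of receptor families and of ligand-receptor pairs thus moved apart in these cases. Tgfb3 fell (481, 157, 52 and 22, slope -2.72 ± 0.19, adjusted p = 0.0116), and so did Tgfb1, Tgfb2 and the PDGF receptor Pdgfrb (819, 348, 114 and 78, slope -2.19 ± 0.18, adjusted p = 0.0140). Its sister receptor Pdgfra, a marker of primitive endoderm as well as of fibroblasts, stood at 2556, 3850, 6088 and 5536 and was not called (adjusted p = 0.0811). Bmp2, Fgf10 and Tdgf1, a co-receptor of Nodal, completed the rising members. Nodal itself stayed at 1 or less.

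Part of the pluripotency genes rose, while Nanog and Sox2, core factors of that state, stayed near 0. Of 26 with values, 23 passed the filter on low values, and of these 12 rose and none fell (median slope 2.44). Pou5f1, the factor also called Oct4, stood at 0, 24, 112 and 193 (4.71 ± 0.59, adjusted p = 0.0168). Dppa5a, an RNA-binding protein of pluripotent cells, stood at 1, 14, 384 and 659 (5.58 ± 0.45, adjusted p = 0.0130). Tfcp2l1, a factor of naive pluripotency, stood at 6, 22, 132 and 339 (3.58 ± 0.25, adjusted p = 0.0116), and Mybl2, a cell cycle factor, at 58, 264, 557 and 798 (2.32 ± 0.27, adjusted p = 0.0159). On day 22 each stood below its mean in CiPSC, which was 4824 ± 409 for Pou5f1, 17428 ± 7065 for Dppa5a, 3900.3 ± 1118 for Tfcp2l1 and 2734 ± 329 for Mybl2 (SD, n = 6). Esrrb, Zfp42, Lin28a, Sall1, L1td1, Fbxo15, Dppa2 and Dppa4 were the other risers. Their day 22 values ran from 16 for Dppa4 to 598 for Sall1, with Dppa2, Fbxo15 and Zfp42 at 32, 50 and 56. Nanog stood at 0, 5, 4 and 2 and Sox2 at 0, 1, 1 and 1, the second below the filter. Klf4 stood at 2628, 2033, 2101 and 6078 (adjusted p = 0.368). Of the two-cell-like genes 5 of 11 were tested and none was called, with Zscan4c at 0, 0, 0 and 16 and Zscan4f at 0, 1, 0 and 20. Zscan4 genes are near-identical copies whose counts could be split between them.

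Epithelial genes rose in 15 of 24 cases and fell in none (median slope 2.06). The adhesion proteins Cdh1 (34, 255, 716 and 806, adjusted p = 0.020) and Epcam (70, 631, 1274 and 1408, adjusted p = 0.0305) were among them. Dsg2, of desmosomes, stood at 19, 66, 252 and 304 (2.58 ± 0.27, adjusted p = 0.0153). The tight junction genes Cldn7 (3, 9, 40 and 70) and Cgn (8, 47, 90 and 184) had slopes of 2.69 ± 0.32 (adjusted p = 0.0161) and 2.61 ± 0.31 (adjusted p = 0.0159). Adhesion, desmosome and tight junction genes were thus all represented. Spint2, a protease inhibitor of epithelia, stood at 51, 230, 580 and 762 (2.44 ± 0.27, adjusted p = 0.0159). Exceptions were Krt19 (406, 681, 820 and 561, adjusted p = 0.420) and Dsp, of desmosomes (782, 460, 583 and 448, adjusted p = 0.303).

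Mesenchymal transcription factors fell in 6 of 14 cases and rose in none (median slope -1.13). Prrx1 stood at 3432, 1040, 676 and 324 (-2.0 ± 0.22, adjusted p = 0.0158) and Zeb2, a repressor of Cdh1, at 1108, 430, 208 and 142 (-1.85 ± 0.17, adjusted p = 0.0153). Snai2, another repressor of epithelial genes, stood at 248, 236, 110 and 66 (-1.23 ± 0.25, adjusted p = 0.0397), its fall starting after day 12. Snai1, of the same family, stood at 197, 361, 274 and 686 (adjusted p = 0.129), and Twist1 at 804, 893, 868 and 434 (adjusted p = 0.323). The factors of this group thus did not move as 1.

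Fibroblast matrix and surface genes fell in 15 of 28 cases and rose in 1 (median slope -1.39), and their summed value was 123031, 105204, 56573 and 27180. Col6a3, a chain of type VI collagen, stood at 843, 200, 74 and 24 (-3.07 ± 0.21, adjusted p = 0.0116). Col3a1 stood at the ceiling on days 6 and 12 and then at 3102 and 518 (-3.43 ± 0.62, adjusted p = 0.0316), so a change between days 6 and 12 could not be seen. Col1a2 stood at 11344, 8334, 3101 and 1030 (-2.14 ± 0.33, adjusted p = 0.0227), Fbn1, a microfibril protein, at 1229, 828, 332 and 178 (-1.77 ± 0.20, adjusted p = 0.0159) and the intermediate filament gene Vim at 8326, 3428, 2334 and 1371 (-1.55 ± 0.20, adjusted p = 0.0171). On the log2 scale the largest step of Col1a2 lay after day 12, and that of Col6a3 and Vim before it. The largest step of Col3a1 cannot be placed, because of the ceiling on days 6 and 12. Fbln1, a matrix protein, was the member that rose (963, 1089, 1916 and 2329, slope 0.86 ± 0.18, adjusted p = 0.0453). Fn1 stood at the ceiling until day 18 and at 11340 on day 22. The fall was not lasting for every collagen, as Col3a1 stood at 11346 on days 30, 36 and 40 and Col1a2 at 3643, 4516 and 4980.

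Contractile genes of smooth muscle fell in 5 of 12 cases. Acta2, smooth muscle actin, stood at 206, 80, 17 and 18 (-2.37 ± 0.34, adjusted p = 0.0206). Mylk, the kinase of myosin light chain, stood at 86, 16, 6 and 4 (-2.57 ± 0.41, adjusted p = 0.0242). Myl9, a regulatory light chain, rose instead, at 37, 114, 409 and 388 (2.26 ± 0.30, adjusted p = 0.0180). The MEF library held Acta2 at the ceiling, so most of its loss came before day 6.

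Targets of Wnt signalling fell in 6 of 14 cases and rose in 1 (median slope -0.92). Lgr5, a receptor for R-spondin, stood at 526, 166, 58 and 27 (-2.63 ± 0.18, adjusted p = 0.0116), Nkd1, a feedback inhibitor, at 867, 286, 48 and 44 (-2.89 ± 0.32, adjusted p = 0.0158) and the transcription factor Lef1 at 330, 122, 68 and 46 (-1.73 ± 0.21, adjusted p = 0.0163). Each was higher on day 6 than in MEF, where they stood at 208, 37 and 0. Axin2, a general Wnt target, stood at 390, 365, 462 and 354 (adjusted p = 0.994). Dkk1, a secreted Wnt inhibitor, was the member that rose (7, 66, 72 and 128, adjusted p = 0.0470). The feedback genes Notum (648, 760, 432 and 239, adjusted p = 0.0936) and Znrf3 (70, 38, 90 and 74, adjusted p = 0.665) were not called either.

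Retinoic acid response genes fell in 5 of 13 cases and rose in 1. Rarb, a receptor that retinoic acid induces, stood at 729, 350, 142 and 55 (-2.27 ± 0.21, adjusted p = 0.0146), and Crabp2, a carrier, at 620, 493, 134 and 81 (-1.96 ± 0.27, adjusted p = 0.0196). Stra8, known from germ cells entering meiosis, rose at 0, 3, 48 and 64 (4.07 ± 0.50, adjusted p = 0.0166). Cyp26a1, which breaks down retinoic acid, stood at 402, 3414, 4959 and 3627 and was not called (adjusted p = 0.0936). Homeobox cluster genes, which record position along the body, fell in 10 of 31 cases (median slope -1.35). Hoxc5 stood at 125, 39, 14 and 5 (-2.69 ± 0.28, adjusted p = 0.0153). Members of the A, B, C and D clusters were all among the falls.

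Interferon response genes fell in 11 of 16 cases and none rose (median slope -1.51), the largest share of any list examined. Gbp2, a GTPase of host defence, stood at 222, 79, 22 and 10 (-2.74 ± 0.23, adjusted p = 0.0140). The RNA sensor Ddx58 stood at 532, 318, 173 and 94 (-1.53 ± 0.18, adjusted p = 0.0159), and Ifit1 at 330, 244, 70 and 20 (-2.48 ± 0.37, adjusted p = 0.0214). Mx1, an antiviral GTPase (44, 38, 28 and 10, adjusted p = 0.109), and Usp18, which restrains interferon signalling (159, 192, 79 and 26, adjusted p = 0.0730), were among those not called. On day 30 Ddx58 and Ifit1 stood at 628 and 203, above their day 22 values. Inflammatory secretion genes fell in 3 of 15 cases, which were the acute-phase gene Saa3 (107, 54, 6 and 5, adjusted p = 0.0214), the cytokine Il6 (64, 39, 16 and 5, adjusted p = 0.0278) and complement C3 (650, 486, 310 and 152, adjusted p = 0.0287).

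Cholesterol synthesis genes fell in 5 of 20 cases and rose in none, among them Nsdhl (492, 334, 182 and 128, slope -1.23 ± 0.17, adjusted p = 0.0182) and Hmgcs1, an early step of the pathway (2917, 1799, 1120 and 822, slope -1.14 ± 0.16, adjusted p = 0.0194). Of 18 glycolysis genes 1 rose, the glucose transporter Slc2a3 (338, 982, 1835 and 3846, slope 2.11 ± 0.18, adjusted p = 0.0140). Its relative Slc2a1 stood at 878, 776, 1364 and 2328 and was not called (adjusted p = 0.0855). In the DNA methylation list 2 of 8 rose, the methyltransferase Dnmt3b (22, 123, 226 and 206, adjusted p = 0.0449) and its cofactor Dnmt3l (4, 4, 28 and 84, adjusted p = 0.0388). No member was called among 9 AP-1 factors and 16 p53 targets, and Tead4 (20, 32, 50 and 74, adjusted p = 0.0448) was the 1 call among 11 YAP and TEAD genes. Slopes were negative in 15 of the 16 p53 targets (median -0.50) and in 7 of the 9 AP-1 factors (median -0.39). The lack of calls therefore does not show that their levels were steady. Junb, an AP-1 factor, stood at 2104, 2104, 729 and 1388. Of 28 cell cycle genes 1 rose, the mitotic kinesin Kif11 (163, 198, 306 and 373, adjusted p = 0.0458), while Mki67 stood at 1105, 778, 975 and 1154 (adjusted p = 0.853). Cell cycle slopes were positive in 23 cases and negative in 5 (median 0.40). Over all genes tested 4.65% rose and 4.74% fell. The 0 or 1 calls in the glycolysis, AP-1, p53, YAP and TEAD, and cell cycle lists are not far from those shares.

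**Figure D2:**
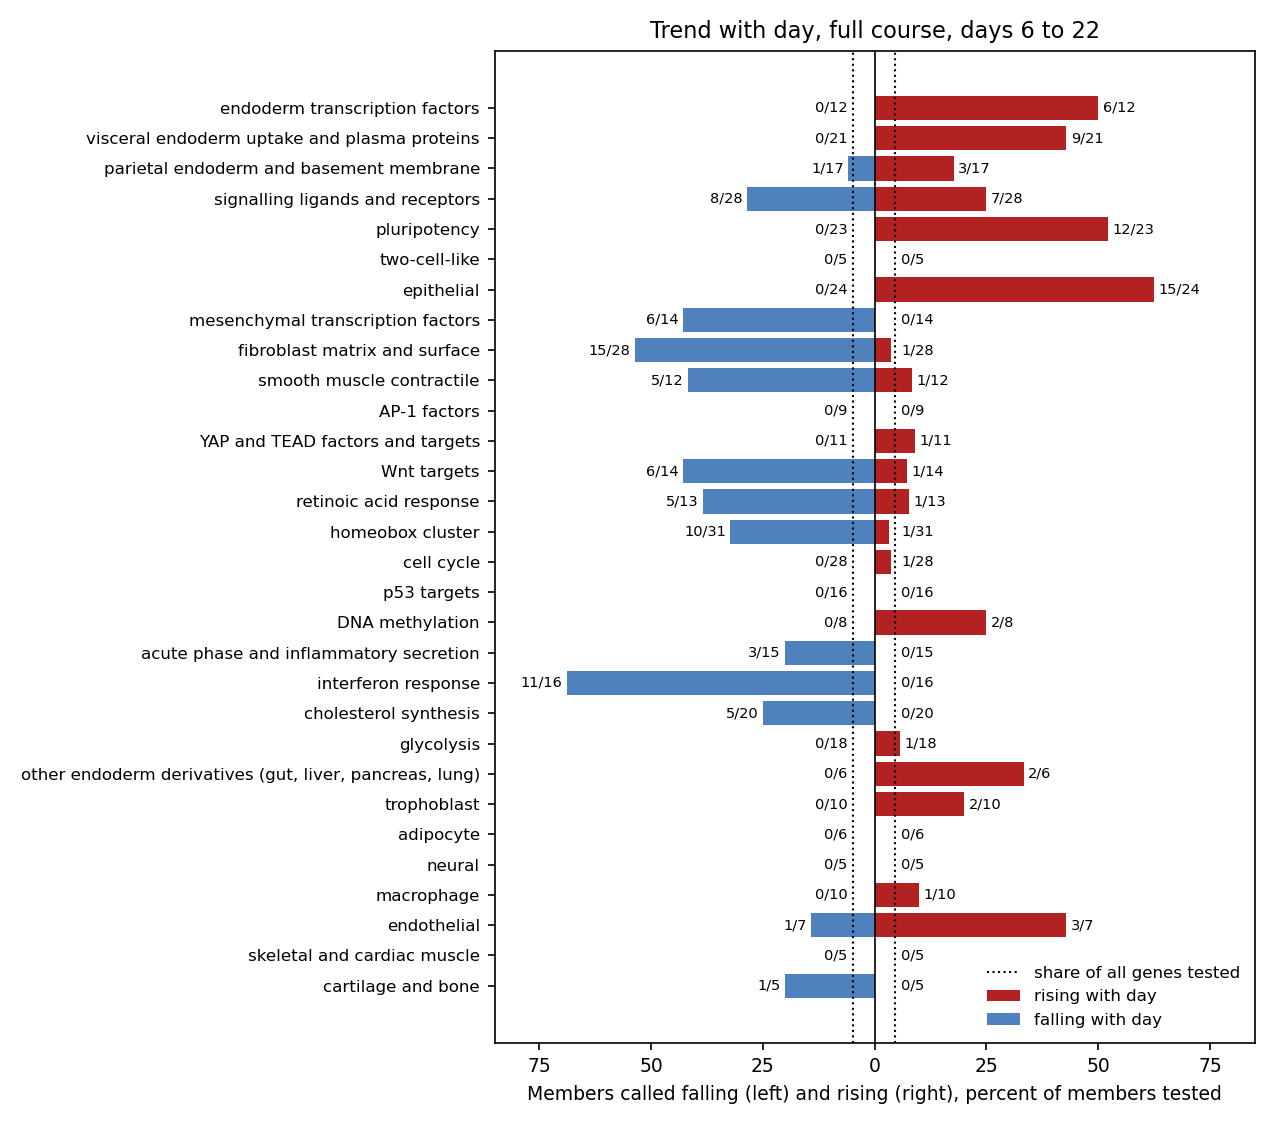
Share of the tested members of each gene list that were called falling (bars to the left) or rising (bars to the right) with day in the full course, with the count of members at the bar's end and dotted lines at the shares over all genes tested (4.74% falling, 4.65% rising). Epithelial (15 of 24), pluripotency (12 of 23) and endoderm factor genes (6 of 12) stand out on the right, and interferon (11 of 16) and fibroblast genes (15 of 28) on the left. The endoderm factor list includes the markers Gata4, Sox17, Sall4 and Foxa2.

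Most of the steepest rises were of genes listed at 0 on day 6, where the pseudocount bears on the slope. Besides Fgfr4, Dppa5a, Apoa4 and Igfbp1, the 12 steepest rises included Pgc, a pepsinogen (0, 70, 299 and 742, slope 5.78 ± 0.75, adjusted p = 0.0171). F2, prothrombin, stood at 1, 102, 504 and 867 (5.40 ± 0.72, adjusted p = 0.0182), and Myl3, a light chain of slow and cardiac myosin, at 0, 55, 414 and 510 (5.67 ± 0.79, adjusted p = 0.0196). Liver-type and stomach-type secreted proteins and a muscle protein thus stood side by side. Car4, a carbonic anhydrase on the cell surface, was at 0, 22, 265 and 428, and Cldn6, a tight junction protein of early embryos, at 0, 76, 209 and 314. Trap1a, a tumour-rejection antigen gene on the X chromosome, was at 0, 26, 139 and 236 and B3gnt7, a glycosyltransferase gene, at 0, 57, 266 and 374. The transcript model Gm37167 was at 0, 0, 305 and 660.

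Falls were led, after Pgk1-rs7, by Heyl, an effector of Notch (432, 15, 2 and 2, slope -4.56 ± 0.74, adjusted p = 0.0254). Pgk1-rs7 (262, 26, 0 and 0) is a processed pseudogene whose reads could be shared with Pgk1, so its value is uncertain. Zbp1, a sensor of nucleic acids, stood at 154, 51, 20 and 0 (-4.13 ± 0.77, adjusted p = 0.0331). The growth factor Ptn stood at 2032, 595, 82 and 36 (-3.75 ± 0.22, adjusted p = 0.0116), and the imprinted gene Mest at 3420, 616, 136 and 60 (-3.65 ± 0.18, adjusted p = 0.0116). Both were already low on day 18. Fbn2 (2220, 540, 106 and 54), of microfibrils, Adam12, a metalloprotease (982, 404, 90 and 30), and Sned1, a matrix protein (926, 176, 55 and 20), fell with the fibroblast matrix. Mrvi1, Tril and Nnat completed the 12.

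**Figure D3:**
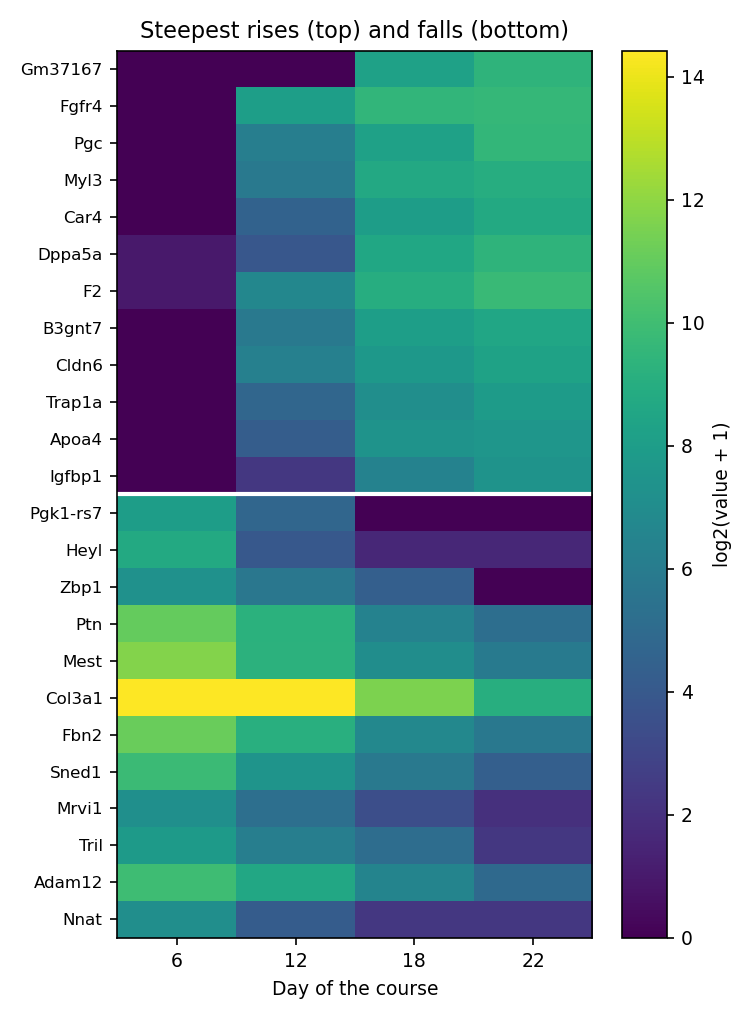
Levels as log2(value + 1), by colour, of the 12 steepest rises (above the white line) and the 12 steepest falls (below it) on days 6, 12, 18 and 22 of the full course, 1 library per column. Most rising genes are at 0 on day 6, and Col3a1 is at the ceiling of 21988 on days 6 and 12.

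Among called genes of high value, Cltc, clathrin heavy chain, stood at 3854, 4982, 8336 and 11346 (1.0 ± 0.20, adjusted p = 0.0415). Rbbp7, a subunit of histone-modifying complexes, stood at 1512, 3627, 5522 and 6860 (1.34 ± 0.22, adjusted p = 0.0256), and Gpx3, a secreted glutathione peroxidase, at 1684, 2419, 4966 and 4506 (1.01 ± 0.22, adjusted p = 0.0486). Gm29084 (466, 1714, 8314 and 8314) is annotated as antisense, and counting by strand is not stated, so its reads may belong to an overlapping gene. Sprr2a2 and Prl2c3 rose too, but both belong to families of near-identical copies. Pla2g7, a phospholipase of lipid mediators, fell (11331, 4506, 3234 and 1166, slope -1.88 ± 0.26, adjusted p = 0.0197), as did Fstl1 (11331, 3846, 1583 and 782, slope -2.38 ± 0.17, adjusted p = 0.0116), a secreted glycoprotein, and Cdh11, a mesenchymal cadherin (11324, 11324, 2212 and 788, slope -2.52 ± 0.44, adjusted p = 0.0291).

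Markers of other cell types were measured beside the endoderm lists. Trophoblast genes rose in 2 of 10 cases, Eomes (24, 40, 88 and 94, adjusted p = 0.0340) and Prl2c2 (394, 768, 909 and 1074, adjusted p = 0.0493), which has near-identical copies. Their summed value was 6292, 9405, 12596 and 12829, with Peg10 at 5529, 8314, 11331 and 11331 (adjusted p = 0.113) and Elf5 and Tfap2c at 32 or less. Endothelial genes rose in 3 of 7 cases and fell in 1, with a sum of 352, 1177, 2750 and 2809. The VEGF receptor Flt1 rose (46, 756, 2280 and 2331, adjusted p = 0.0278). Kdr, another VEGF receptor, fell (194, 78, 64 and 50, adjusted p = 0.0483), while the receptor Tek (22, 64, 76 and 104, adjusted p = 0.0496) and the adhesion protein Esam (12, 62, 106 and 141, adjusted p = 0.0267) rose. Pecam1 stood at 16, 24, 42 and 42 (adjusted p = 0.0974) and the cadherin Cdh5 at 62, 175, 168 and 141 (adjusted p = 0.250). Called endothelial genes thus went both ways.

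Gut, liver and pancreas genes other than those above rose in 2 of 6 cases, Cdx2 (1, 9, 16 and 44, adjusted p = 0.0248) and Prox1 (26, 44, 88 and 104, adjusted p = 0.0295), with a sum of 53, 103, 131 and 177. Macrophage genes rose in 1 of 10, Cd68 (58, 74, 228 and 330, adjusted p = 0.0214), while C1qa was at 0 on all 4 days and the sum was 300, 525, 591 and 531. Bone and cartilage genes fell in 1 of 5, Ibsp (299, 239, 112 and 80, adjusted p = 0.0253), with a sum of 567, 394, 355 and 375. No call was made among 6 adipocyte genes (sum 824, 914, 709 and 465), 5 neural genes (207, 259, 143 and 119, with Sox1, Neurog2 and Dcx at 0) and 5 skeletal and cardiac muscle genes (37, 19, 41 and 54). Over all genes tested 4.65% rose and 4.74% fell, so 0 or 1 call in lists this short is not far from those shares. The part of these cell types in the results was not tested.

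Slopes of the full course were next set against those of the course without BrdU on the same days (8 libraries, difference of slopes). Of 16111 genes 361 (2.24%) were called steeper upward in the full course and 517 (3.21%) steeper downward. With day as a block, which pairs the libraries of the same day, the counts were 954 and 1366, and 875 of the 878 genes were also called. Foxa2 differed by 5.23 ± 1.02 (adjusted p = 0.0351), its values without BrdU being 1, 1, 0 and 0. Sox17 differed by 4.61 ± 0.99 (adjusted p = 0.0428), with 18, 7, 8 and 6 without BrdU. Gata4 (2, 6, 6 and 4 without BrdU) differed by 4.06 ± 1.36 and was not called (adjusted p = 0.123), nor was Sall4 (0, 10, 8 and 13 without BrdU, difference 1.32 ± 0.98, adjusted p = 0.459). None of the 4 markers passed 18 on any day without BrdU.

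Called differences in the endoderm lists pointed mostly 1 way. Steeper upward were 3 of 12 endoderm factors, Gata6 (2.32 ± 0.27, adjusted p = 0.0127) and the markers Sox17 and Foxa2 already given above. So were 5 of 21 visceral endoderm genes, including Lrp2 (4.57 ± 0.91, adjusted p = 0.0355) and Dab2 (2.95 ± 0.35, adjusted p = 0.0127). Without BrdU Gata6 stood at 390, 235, 262 and 208. Basement membrane genes were split, with 5 steeper upward, such as Col4a2 (2.01 ± 0.28, adjusted p = 0.0152), and 3 steeper downward, Lama5, Nid1 and Plat. Nid1 stood at 6084, 4966, 6868 and 6868 in the full course, against 3420, 6868, 21988 and 21988 without BrdU. Pluripotency genes were steeper upward in 4 of 23 cases, Pou5f1, Dppa5a, Tfcp2l1 and Mybl2, and steeper downward in none.

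Epithelial genes did not share that pattern. Their median slope was 2.06 in the full course, against 3.01 without BrdU, and no member of 24 was called steeper upward while Krt18, Krt19 and Spint1 were steeper downward. Cdh1 stood at 34, 255, 716 and 806 in the full course, against 4, 72, 356 and 620 without BrdU (difference -1.50 ± 0.67, adjusted p = 0.223). Epithelial genes thus had a positive median slope in both courses. On the falling side 4 of 14 mesenchymal factors and 8 of 28 fibroblast genes were steeper downward in the full course. Prrx1 stood at 2286, 2041, 2220 and 3643 without BrdU (difference -2.36 ± 0.32, adjusted p = 0.0151), Zeb2 at 470, 427, 384 and 428 (-1.73 ± 0.20, adjusted p = 0.0127) and Col6a3 at 903, 974, 816 and 778 (-2.91 ± 0.22, adjusted p = 0.00957). On day 22 they stood at 324, 142 and 24 in the full course, far below those values.

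Cell cycle genes gave the largest share of called differences. Of 28, 14 were steeper upward in the full course and none steeper downward, although 1 alone had a called slope of its own. Their median slope was 0.40 in the full course, against -0.66 without BrdU. Ccna2, a cyclin of S phase and mitosis, stood at 193, 328, 530 and 432 in the full course, against 122, 72, 66 and 46 without BrdU (difference 1.60 ± 0.29, adjusted p = 0.0314). Uhrf1, which carries DNA methylation through replication, stood at 132, 276, 386 and 341 in the full course, against 108, 50, 24 and 26 without BrdU (difference 2.23 ± 0.37, adjusted p = 0.0245). Both were lower on day 22 than on day 6 in the course without BrdU, and higher in the full course. Interferon genes were steeper downward in 5 of 16 cases.

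The course without Chir gave 698 genes (4.32%) steeper upward and 685 (4.24%) steeper downward in the full course, of 16159 tested. With day as a block the counts were 407 and 379, and 727 of the 1383 genes were also called. It is compared with the same 4 full-course libraries, so the 2 sets of differences are not independent. None of the 4 markers was called, with adjusted p-values of 0.0775 for Gata4, 0.125 for Sox17, 0.0555 for Sall4 and 0.0985 for Foxa2. Their values without Chir were 12, 15, 24 and 11 for Gata4, 22, 12, 52 and 46 for Sox17, 7, 16, 22 and 14 for Sall4, and 2, 4, 10 and 16 for Foxa2. All 4 stayed at 52 or less there. Sox17 had a difference of 2.88 ± 1.05 that turned to -0.67 without day 6 (adjusted p = 0.646), when the jump between days 6 and 12 was gone from the fit.

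Gata6 (difference 1.99 ± 0.23, adjusted p = 0.00779) and Sox7 (2.38 ± 0.37, adjusted p = 0.0147) were the endoderm factors called. Without Chir, Gata6 stood at 376, 334, 366 and 303 and Sox7 at 192, 202, 216 and 172. Sox7 thus stood higher without Chir than in the full course on day 6 and lower on day 22. Visceral endoderm genes were steeper upward in 8 of 21 cases, pluripotency genes in 8 of 22 and basement membrane genes in 7 of 17, with Plat the 1 basement membrane gene steeper downward. Epithelial genes were steeper upward in 6 of 24, with Cdh1 at 24, 34, 62 and 57 without Chir (2.0 ± 0.50, adjusted p = 0.0475) and Cgn at 14, 15, 21 and 11 (2.66 ± 0.48, adjusted p = 0.0202). Their median slope was 0.66 without Chir. Cell cycle genes were again steeper upward in 16 of 28 cases and steeper downward in none, with Top2a, a topoisomerase of dividing cells, at 1171, 600, 361 and 216 without Chir (2.09 ± 0.19, adjusted p = 0.00755).

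Genes that fell in the full course behaved unequally without Chir. Fibroblast matrix genes had a median slope of -0.87 there, and 3 of 28 were steeper downward in the full course, with Fbln1 steeper upward. Prrx1 stood at 1040, 368, 182 and 150 on that course, with a slope difference of -0.24 ± 0.30 (adjusted p = 0.663). Col6a3 was already at 42 on day 6 without Chir. Vim, at 6090, 5538, 6877 and 8326, differed by -1.84 ± 0.26 (adjusted p = 0.0108). Wnt targets were steeper downward in 5 of 14 cases and steeper upward in 1, Dkk1, with Lgr5 standing at 44, 58, 26 and 26 and Apcdd1, a Wnt inhibitor, at 140, 190, 144 and 171 without Chir. Both were far lower on day 6 without Chir than in the full course, at 526 and 1585. Interferon genes were steeper downward in 8 of 16 cases and steeper upward in none, with Ifit1 at 928, 874, 600 and 556 and Rsad2 at 175, 270, 270 and 264 without Chir.

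**Figure D4:**
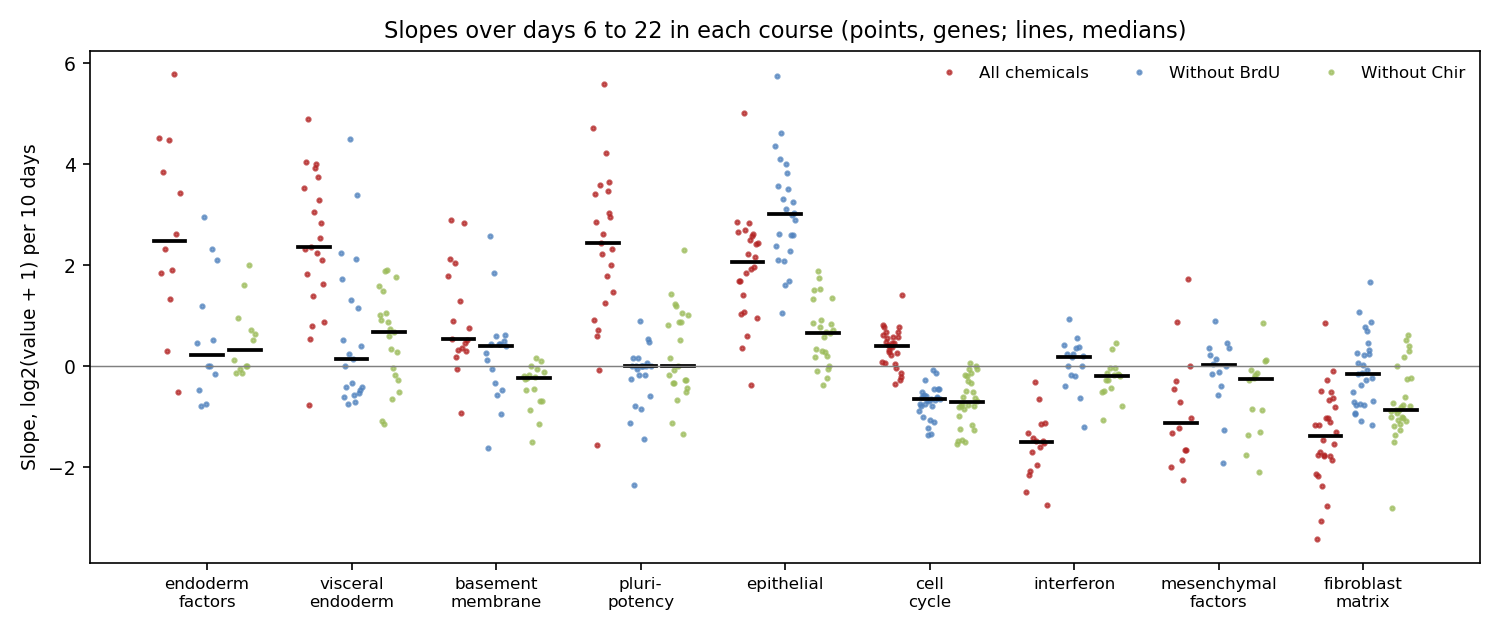
Slope per gene (points, change of log2(value + 1) per 10 days) and median (black line) in 9 gene lists for the full course, the course without BrdU and the course without Chir. Cell cycle genes have a median of 0.40 in the full course, against -0.66 without BrdU and -0.71 without Chir, while epithelial genes have 2.06, against 3.01 and 0.66.

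As with the trend, no slope difference was called by limma in either comparison when any 1 day was left out, with lowest adjusted p-values of 0.0571 to 0.2 without BrdU and 0.0533 to 0.095 without Chir. At an unadjusted p under 0.05 those fits gave 2151 to 3597 genes for BrdU and 2861 to 4383 for Chir. All 878 and 1383 called genes kept their sign in each of them. They were picked for slope differences in the same libraries, so this too was close to given and is no separate support.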

How the data were processed

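Per the labels, TRIzol RNA went into TruSeq RNA libraries for a NextSeq 500. Bowtie2, RSEM, bcl2fastq and the mm10 build are listed, per the submitters' processing notes, without versions. A single table with 16718 genes and 26 libraries was deposited. Its name says CPM, and the design assumed that unit, but the deposited values behave as a score: whole numbers with 1 common distribution, a median of 77 in each of the 4 libraries and a maximum of 21988 in every library. The step that made them is not given in the sources used here. Depth is therefore unknown and no count test was possible.

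From these values log2(value + 1) was computed. Genes averaging 1 or more across a fit's libraries were tested using limma 3.58.1 (R 4.3.3), whose prior variance was allowed to follow mean intensity. The trend used day as a number over the 4 full-course libraries (2 residual degrees of freedom). Slope differences used course, day and their interaction over 8 libraries (4 residual degrees of freedom). Tests were two-sided, with Benjamini-Hochberg adjustment over all genes tested. The trend fit was tried on simulated data, and the fits of slope differences were not. The p-values measure scatter over days of single libraries.

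The 30 gene lists, the members and the rule for named genes were chosen with earlier results of these data known. The rule took the markers, the 12 steepest monotone changes each way that reach 100, the 6 highest called genes each way below the ceiling, up to 4 members per list by p with exceptions, the 5 largest slope differences each way, and transient genes. Other genes were named after their values were seen. Some list members are not reported here by name. Positions are from GENCODE M21 and promoter windows from RefSeq.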

Additional observations from a re-analysis of the deposited data

Results flagged for a closer look

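Listed below are differences between courses, given as the full course minus the reduced course in log2 per 10 days. They cover the markers whose difference passed the limma test, and the 5 largest slope differences each way under the rule for named genes. The latter were picked from genes already called, so that they passed is no separate result. The steepest trend genes were not screened here as a set, so a gene missing from the list did not necessarily fail the test. Against the course without BrdU, the upward ones were Fabp3, a fatty acid carrier (6.61), Dppa5a (6.43), F2 (6.08), Pou5f1 (5.85), Pgc (5.78), Foxa2 (5.23) and Sox17 (4.61). Fabp3 stood at 15, 1317, 4201 and 3841 in the full course, against 18, 6, 2 and 2 without BrdU on days 6, 12, 18 and 22.

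Downward against the same course were the pseudogene Pgk1-rs7 (-8.87), Alox15, a lipoxygenase (-5.46), Arg1, arginase (-4.88), Ly6d, a surface protein of epithelia (-4.38), and Upk1b, a uroplakin (-4.35). Alox15 stood at 1, 1, 1 and 0 in the full course, against 0, 8, 84 and 218 without BrdU. Upk1b stood at 17, 26, 14 and 13 in the full course, against 5, 100, 343 and 531 without BrdU.

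Against the course without Chir, the upward ones were Gm37167 (6.75), Pgc (5.78), Scube2, a secreted protein (5.68), Myl3 (5.67) and B4galnt3, a glycosyltransferase (5.65). Scube2 stood at 4, 128, 356 and 444 in the full course, against 5, 10, 2 and 0 without Chir. The downward ones were Tom1 (-9.72), Pgk1-rs7 (-6.64), Tgtp1 (-4.20), Dach2 (-4.11) and Zbp1 (-3.71). Tom1 stood at 137, 226, 0 and 0 in the full course, against 0, 0, 164 and 30 without Chir. Tgtp1 belongs to a family of near-identical copies.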

How the results depend on the processing

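Counts of called genes depended on the variance model, the day coding and single days. The trend count of 1506 became 945 with the order of the days, 0 with no intensity trend and 4075 in 1 fit over the 12 libraries of the 3 courses. The BrdU count of 878 became 451, 191 and 1820 under the same settings, and 2320 with day as a block. The Chir count of 1383 became 644 with no intensity trend and 786 with day as a block. Of the 1506 trend genes, 1471 were also called in the 12-library fit and 935 with the order of the days. Leaving out each day in turn gave 0 calls in all 3 comparisons. A fit over the 3 courses without each day, chosen after seeing that, gave 1046, 3681, 1887 and 2107 trend genes without days 6, 12, 18 and 22. Over both kinds of such fits the trend count ranged from 0 to 3681, BrdU from 0 to 1395 and Chir from 0 to 1215. The Sox17 slope difference from the course without Chir ranged from -0.67 to 3.77 with single days left out, the negative value coming without day 6 in both kinds. The labels give no replicate numbers, so the day block above is the pairing between courses.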

Other observations

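A rule for transient genes, highest on day 12 or 18, reaching 100 and at least 2 log2 units above both days 6 and 22, found 4 genes. Krt14, a keratin of basal epithelia, stood at 5, 100, 44 and 12 in the full course, against 1, 88, 567 and 770 in the course without BrdU. The other 3, Gm26735, Gm10800 and Gm10718, are transcript models of no stated function, and each was highest on day 18.

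Foxa1, a relative of Foxa2, stood at 5 or less in the full course, against 7, 28, 102 and 206 without BrdU (slope difference -2.66 ± 0.63, adjusted p = 0.0522 with limma). Trf, the plasma iron carrier of the visceral endoderm list, stood at 120, 420, 566 and 262 in the full course, against 33, 806, 3638 and 4974 without BrdU (-3.70 ± 0.90, adjusted p = 0.0559). Neither difference passed the test.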
